A study of Mus musculus with 2 samples.

Results

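The loci described here are those of 7 mouse leukocyte integrin genes (Itgal, Itgam, Itgax, Itgb2, Itgae, Itga1 and Itga2), and the members are the Runx3 peaks whose midpoint fell in 1 of 5 windows set around them in mm9 coordinates. These windows held 56 of the 19647 peaks of the deposited list, which was 0.285% of the peaks in 0.0349% of the 2553 Mb spanned by the list. The series has 1 chromatin immunoprecipitation sequencing (ChIP-seq) library for Runx3, precipitated with a home-made polyclonal antibody, and 1 control library, for which non-immune rabbit serum was used. Both came from wild-type ICR mice given 2 injections of IL-15 complexed with its receptor alpha chain, 2 days apart. Splenic natural killer (NK) cells, 40000000 by the labels, were enriched by negative selection and then sorted for the NK cell receptor NKp46. The sources used here do not give the age and sex of the mice, or how many were pooled. The deposited peak list gives positions only, with no score, height or read count, and holds no expression values, so the cell type could not be checked against its markers. With 1 Runx3 library and no values of the control library, no test between libraries was made. Read depth per peak is unknown, and so is whether the list is complete.

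Integrins are cell surface receptors built from an alpha and a beta chain that bind matrix proteins or ligands on other cells. Itgb2 encodes CD18, the beta chain shared by Itgal (CD11a, in LFA-1), Itgam (CD11b, in Mac-1) and Itgax (CD11c). LFA-1 binds ICAM-1 and holds the NK cell to its target, and CD11b marks maturing mouse NK cells. Itgae encodes CD103, which pairs with the beta 7 chain and binds E-cadherin on epithelial cells, and in mouse CD8 T cells its expression is known to depend on Runx3. Itga1 (CD49a) and Itga2 (CD49b, recognised by the antibody DX5) pair with the beta 1 chain as collagen receptors. CD49b is a common marker of mouse NK cells, and CD49a marks tissue-resident ones. Runx3 is a Runt-domain transcription factor that binds a short core sequence written TGTGGT or TGCGGT.

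The promoters of the adjoining genes Itgam and Itgax are shown because the window that holds this pair had the most peaks of the 5. Each sequence runs from 250 bases before to 50 bases after the gene's start, from RefSeq on GRCm38.p6, plus strand, with the Runx core in capitals. The Itgax sequence lies at chr7:128129300-128129599 of that build, and the Itgam sequence at chr7:128062390-128062689. These are not mm9 coordinates, so no peak was placed in either sequence.
Itgax: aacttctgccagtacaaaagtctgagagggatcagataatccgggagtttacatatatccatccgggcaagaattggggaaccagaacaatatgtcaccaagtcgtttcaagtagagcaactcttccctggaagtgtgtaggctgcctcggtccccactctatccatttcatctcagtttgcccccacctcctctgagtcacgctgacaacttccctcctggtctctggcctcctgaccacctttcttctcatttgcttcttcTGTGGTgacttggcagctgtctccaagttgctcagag
Itgam: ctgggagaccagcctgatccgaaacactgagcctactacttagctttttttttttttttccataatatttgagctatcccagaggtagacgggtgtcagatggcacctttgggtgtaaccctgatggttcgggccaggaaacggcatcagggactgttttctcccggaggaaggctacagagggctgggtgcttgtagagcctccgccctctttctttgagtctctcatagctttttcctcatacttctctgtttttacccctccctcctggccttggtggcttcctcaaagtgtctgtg
The Itgax sequence had 1 match, TGTGGT on the printed strand, whose first base is at position 14 counting the gene's start as 1. The Itgam sequence had none, and neither did those of Itga1 and Itga2. The promoter table held 4 of the 7 members, and on both strands 1 of 4 promoters held TGTGGT or TGCGGT. The background was 22.4% of all 32851 promoters (7362), and 6 of 24 promoter windows (25%) of the 22 genes named Itga or Itgb. The members' share was thus close to the background. A match is a description of the letters and does not show binding.

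With all peaks counted, Runx3 peaks were dense at the loci of the CD18 family and at Itga2-Itga1, and sparser at Itgae. The 5 windows together held 6.29 peaks per 100 kb (exact 95% Poisson interval 4.75 to 8.17, counting error only, peaks taken as independent), against 0.769 per 100 kb over the whole list, a ratio of 8.18. Peaks covered 3.77% of the windows (33.5 kb of 890 kb), against 0.520% of the span of the list. By window, the density was 10.9 per 100 kb at Itgb2 (5.64 to 19.1), 9.05 at Itgam-Itgax (5.45 to 14.1), 8 at Itgal (3.45 to 15.8), 4.06 at Itga2-Itga1 (2.16 to 6.95) and 2.67 at Itgae (0.727 to 6.83). These are the intervals of single windows, and differences between windows were not tested. The order depends on narrow peaks. At or above the list's median width were 4 peaks in the 150 kb at Itgae and 5 in the 210 kb at Itgam-Itgax. The 320 kb at Itga2-Itga1 held 5, the 100 kb at Itgal 3 and the 110 kb at Itgb2 7. Among these wider peaks Itgae was not the sparsest window. Its ratio to equal-width tiles was still the lowest, at 3.69 against 4.83 to 14.7. The windows were set around genes, whereas the tiles used below and the span of the list were not chosen by their genes.

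**Figure D1:**
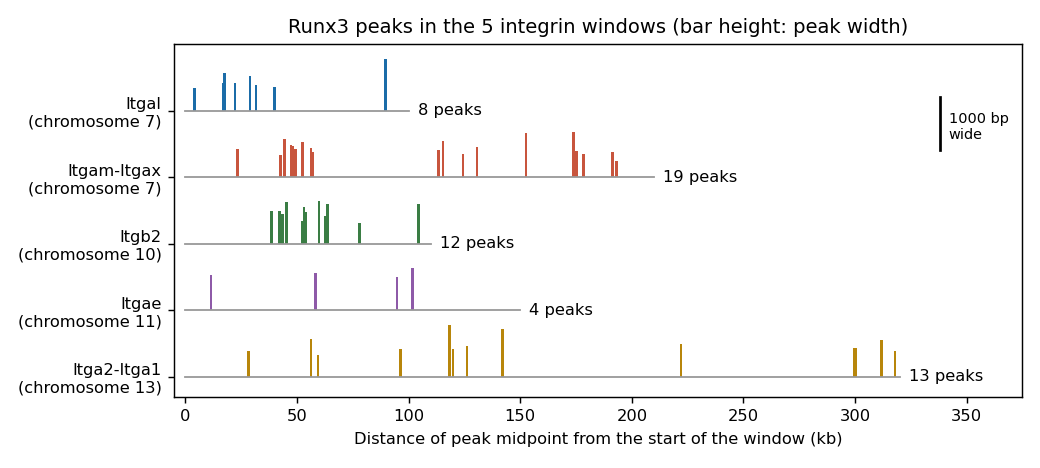
Positions of the 56 Runx3 peaks in the 5 integrin windows. The x axis is the distance of the peak midpoint from the start of the window in kb, the height of a bar is the peak's width against the 1000 bp scale bar, and bars are drawn broader than the peaks for visibility. Most peaks at Itgb2 stand in 1 block of 10, those at Itgam-Itgax stand in several groups, and the 4 at Itgae stand apart.

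For each window the count was set beside equal-width tiles laid from the first base of the same chromosome, leaving out tiles that overlap an integrin window. Tiles without a peak made up 68.8% for Itgal, 58.5% for Itgam-Itgax, 66.4% for Itgb2, 46.6% for Itgae and 44.9% for Itga2-Itga1. At Itgb2, on chromosome 10 from 76940000 to 77050000, 12 peaks compared with a mean of 0.947 in 1152 tiles, a ratio of 12.7 (6.55 to 22.1). Tiles with at least 12 peaks made up 0.781% (9 tiles), and the fullest held 20. Peaks covered 6.80% of the Itgb2 window, against 0.588% of the average tile, and 0.781% of tiles reached that share. By count and by covered share alike, few equal stretches of chromosome 10 were as full as the window around the CD18 gene.

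At Itgam-Itgax, on chromosome 7 from 135150000 to 135360000, 19 peaks compared with a tile mean of 1.96, a ratio of 9.71 (5.85 to 15.2). Of 708 tiles, 2 (0.282%) held at least as many, the fullest holding 22 from 73290001 to 73500000. The covered share was 5.05%, against 0.639% in the average tile, and 1.13% of tiles reached it. The count was therefore rarer among tiles than the covered share. At Itgal, on chromosome 7 from 134400000 to 134500000, 8 peaks compared with a tile mean of 0.936 (ratio 8.55, 3.69 to 16.8), and 1.55% of 1487 tiles (23) held at least 8. The covered share at Itgal was 4.71%, against 0.642% in the average tile, a share that 2.15% of tiles reached.

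At Itga2-Itga1, on chromosome 13 from 115580000 to 115900000, 13 peaks compared with a tile mean of 2.15 (ratio 6.04, 3.22 to 10.3), and 1.1% of 363 tiles (4) held at least 13. Peaks covered 2.48% of this window, against 0.449% of the average tile, which 1.65% of tiles reached. At Itgae, on chromosome 11 from 72850000 to 73000000, 4 peaks compared with a tile mean of 2.09. The ratio of 1.92 had an interval of 0.522 to 4.90, which includes 1, and 23.7% of 790 tiles (187) held at least 4 peaks. With only peaks at or above the median width, the ratio was 3.69 (1.0046 to 9.44), which no longer includes 1, and 9% of tiles held as many. All 4 Itgae peaks are that wide, so the window's count was unchanged and only the tile mean fell. With the same limit, tiles holding as many peaks rose from 1.55% to 5.72% for Itgal and from 0.282% to 6.92% for Itgam-Itgax. For Itga2-Itga1 they rose from 1.1% to 4.96%, and for Itgb2 they stayed at 0.781%. The intervals of these ratios began at 1.27 for Itgal, 1.59 for Itgam-Itgax, 1.57 for Itga2-Itga1 and 5.89 for Itgb2. In the other alternatives for the count at Itgae, the interval included 1. These intervals take peaks as independent and the tile mean as fixed, so whether 1 is included is not a test. The fullest of the 790 tiles held 18 peaks. The covered share at Itgae, 1.85%, was above the tile mean of 0.955%, and 19.6% of tiles reached it. The Itgae window thus carried Runx3 peaks, in a number that was common, with all peaks counted, on chromosome 11, which had 1.40 peaks per 100 kb, against 0.680 to 0.955 on chromosomes 7, 10 and 13.

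**Figure D2:**
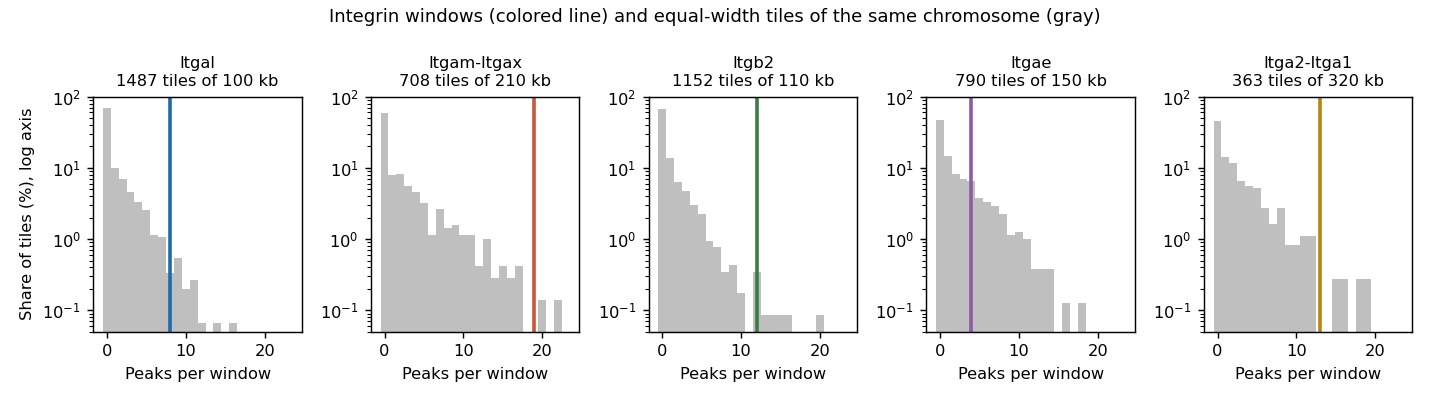
Peaks per window (x axis) and share of tiles in percent (y axis, log scale), with 1 panel per integrin window. The colored line is the integrin window and the gray bars are equal-width tiles of the same chromosome. All peaks are counted. The line lies in the far right tail for Itgal (8), Itgam-Itgax (19), Itgb2 (12) and Itga2-Itga1 (13), and inside the body of the tiles for Itgae (4).

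The surroundings of the windows differed. The Itga2-Itga1 group stood alone: the next Runx3 peak before it lay 927 kb away and the next after it 1899 kb away, and both equal-width flanks held 0 peaks. All 13 peaks of the 1 Mb bin from 115 to 116 Mb fell in this window. The following observation was chosen after the values were seen. Over 900 kb from other peaks on both sides lay 540 groups of the list, of which 125 were at most as long as the Itga2-Itga1 group. With 13 peaks in 290 kb, it was the only one of these 125 with 13 or more, and their median was 2 peaks. Both limits follow this group: no group compared was longer, and 900 kb lies just below its own gap of 927 kb. Its rank is therefore partly built in and is only a description. Gaps of 1899 kb or more numbered 241 among the 19627 gaps of the list, 9 of them on chromosome 13. The RefSeq order of protein-coding genes on GRCm38.p6, by start coordinate, was used for names only. In it Fst and Mocs2 come before this pair, and Pelo and Isl1 after it. An order by start does not show whether a gene lies inside another.

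Itgal, by contrast, lay in a crowded region. The 1 Mb bin that contains it held 53 peaks, 8 of them in the window, and the equal-width flanks held 8 and 4. Among 17 equal windows laid out within 1 Mb on either side, the mean was 4.76 peaks and 3 windows held at least 8, so the ratio to the surroundings was 1.68 (0.725 to 3.31). The 12 peaks at Itgb2 were 5.40 times (2.79 to 9.43) the mean of 2.22 in its 18 surrounding windows, which held at most 9. Itgam-Itgax had a ratio of 3.80 (2.29 to 5.93) over 7 surrounding windows that held 0 to 9 peaks. At Itgae the 12 surrounding windows averaged 1.92 peaks, and 2 of them held at least 4.

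In the window around Itgb2, the gene of the shared CD18 chain, 10 of the 12 peaks formed 1 stretch in which neighbouring midpoints were at most 10 kb apart. It ran over 25.6 kb from 76978266 to 77003903, and peaks covered 24.8% of it. Stretches of at least 10 peaks numbered 17 among the 13450 stretches and single peaks of the list, 3 of them on chromosome 10. The stretch opened with peaks at 76978266 to 76978882 (617 bp), 76981714 to 76982333 (620 bp), 76983120 to 76983673 (554 bp) and 76984792 to 76985573 (782 bp). After a gap of several kb, a close trio followed at 76992139 to 76992555 (417 bp), 76992692 to 76993389 (698 bp) and 76993633 to 76994223 (591 bp), with only 136 bp between the first and the second. The widest peak of the window, 808 bp from 76999460 to 77000267, came next, and peaks at 77002185 to 77002702 (518 bp) and 77003151 to 77003903 (753 bp) closed the stretch. The 2 outlying peaks, at 77017656 to 77018038 (383 bp, the narrowest) and 77044115 to 77044856 (742 bp), stood singly. In RefSeq order Fam207a precedes Itgb2, and Pttg1ip and Sumo3 follow it.

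At Itgal, which encodes the LFA-1 alpha chain, 6 of the 8 peaks formed a stretch of 23.5 kb from 134416550 to 134440015. Its first pair, at 134416550 to 134417072 (523 bp) and 134417093 to 134417790 (698 bp), was separated by 20 bp, the smallest gap in any of the 5 windows. Peaks at 134421927 to 134422445 (519 bp), 134428608 to 134429260 (653 bp), 134431368 to 134431852 (485 bp) and 134439581 to 134440015 (435 bp) followed. These spread over the stretch without a second close pair. The narrowest Itgal peak, 422 bp from 134403871 to 134404292, belonged to a stretch of 3 that began outside the window. The widest, 975 bp from 134489004 to 134489978, stood alone after 49.0 kb without a peak, and was also the widest of all 56. Dctpp1 and Sephs2 precede Itgal in RefSeq order, Zfp768 and Zfp747 follow it, and no peak was assigned to any of these genes.

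The Itgam-Itgax window, with the CD11b and CD11c genes, held 19 peaks in 4 stretches and 2 single peaks. The densest stretch packed 8 peaks into 15.02 kb, from 135192330 to 135207349, of which peaks covered 30.1%. Stretches of 8 or more numbered 53 in the list and 5 on chromosome 7. Its closest pair, at 135196993 to 135197588 (596 bp) and 135197789 to 135198371 (583 bp), had 200 bp between them. After it came the longest peak-free part of the window, 55.9 kb, followed by stretches of 4, 3 and 2 peaks. The first peak of the window (135172892 to 135173419, 528 bp) stood alone, and the last (135342837 to 135343135, 299 bp) was the narrowest of the 56. The widest measured 847 bp (135323455 to 135324301) and 825 bp (135302089 to 135302913), both in the distal part, followed by 716 bp (135194126 to 135194841), 685 bp (135265064 to 135265748) and 667 bp (135202010 to 135202676). In RefSeq order Pycard and Trim72 precede Itgam, which is followed by Itgax, Itgad, another CD18 partner, and Cox6a2. Which of these genes a peak lies in was not determined, since no mm9 annotation was used here.

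At Itgae, which encodes the CD103 alpha chain, the peaks were few and far apart. They lay at 72861056 to 72861715 (660 bp), 72907951 to 72908653 (703 bp), 72944400 to 72945019 (620 bp) and 72951217 to 72952002 (786 bp). Only the third and the fourth were within 10 kb of each other, with midpoints 6.90 kb apart. All 4 were at or above the list's median width of 604 bp. In the RefSeq order by start coordinate, Camkk1 and Ncbp3 come before Itgae, and Haspin and P2rx5 after it. That order does not show whether a gene lies inside Itgae, and which of these genes a peak lies in was not determined.

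At Itga2-Itga1, the collagen receptor pair, 13 peaks were spread over 290 kb in groups of at most 3. The trio ran from 115697777 to 115706424 (8.65 kb) and included the widest peak of the window, 964 bp from 115697777 to 115698740. A further peak of 897 bp lay at 115721472 to 115722368, before the longest peak-free part, 79.3 kb. Only 1 peak, at 115801683 to 115802293 (611 bp), had no other within 50 kb. The closest pair, at 115879465 to 115880008 (544 bp) and 115880176 to 115880714 (539 bp), was separated by 167 bp. The first peak lay at 115608119 to 115608602 (484 bp) and the last at 115897620 to 115898097 (478 bp), and the other wide ones measured 704 bp (115635917 to 115636620) and 686 bp (115891524 to 115892209) and 585 bp (115705840 to 115706424).

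The median spacing of neighbouring peaks was shorter than that of the chromosome in 4 windows and longer in the Itgae window. The median distance between neighbouring midpoints was 2.58 kb at Itgb2, against 21.9 kb on chromosome 10 as a whole. It was 2.99 kb at Itgam-Itgax and 6.75 kb at Itgal, against 18.8 kb on chromosome 7. At Itga2-Itga1 it was 13.6 kb, against 29.3 kb on chromosome 13, and at Itgae 36.4 kb, against 17.9 kb on chromosome 11. Pairs within 10 kb made up 81.8% at Itgb2 (9 of 11), 72.2% at Itgam-Itgax (13 of 18), 71.4% at Itgal (5 of 7), 41.7% at Itga2-Itga1 (5 of 12) and 33.3% at Itgae (1 of 3), against 28.1 to 37.1% on the 4 chromosomes. The 95% order-statistic interval of the median lay below the chromosome value at Itgb2 (0.887 to 14.3 kb) and Itgam-Itgax (1.60 to 13.1 kb), and included it at Itga2-Itga1 (3.06 to 37.1 kb). At Itgal the 7 distances ranged from 0.631 to 49.7 kb and at Itgae the 3 distances from 6.90 to 46.9 kb, so both straddled the chromosome median. With only peaks at or above the median width of the list, the ratio of window to chromosome median was 0.655 at Itgam-Itgax, against 0.159 with all peaks. Its interval of 0.176 to 1.41 includes 1. Only 5 Itgam-Itgax peaks were that wide, so this interval is the range of their distances and not a 95% interval. Short spacing and a high count in a fixed window are not independent measures.

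**Figure D3:**
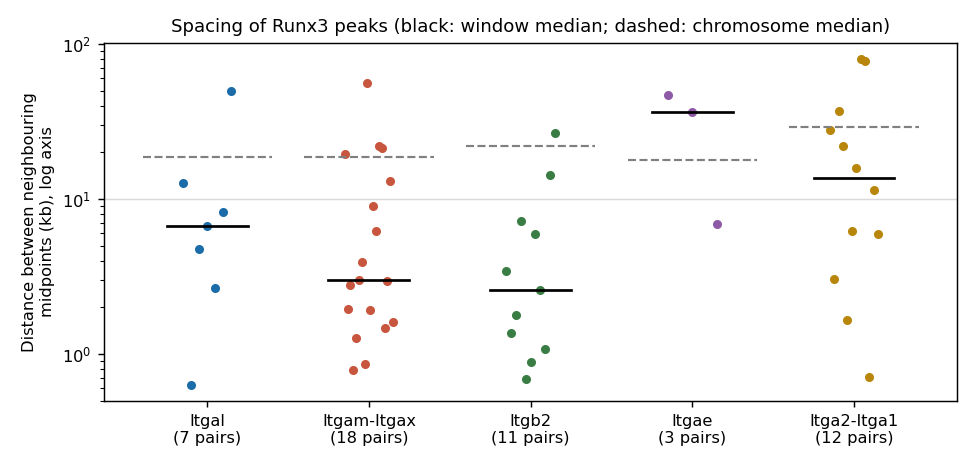
Distance between neighbouring peak midpoints in kb (log axis) in each integrin window, 1 point per pair. Black bars are window medians and dashed lines are the medians of the chromosome. The window median lies below the chromosome's at Itgal, Itgam-Itgax, Itgb2 and Itga2-Itga1, and above it at Itgae, where there are 3 pairs.

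The peaks in these windows were not wide. Their median was 571.5 bp, with a range of 299 to 975 bp, against 604 bp for all other peaks of the list. None of the 56 exceeded 1000 bp, against 10.4% of all peaks (2050), and the widest peak of the list measured 5413 bp. At or above the list median were 24 of 56 (42.9%), against 50.1% of all peaks. By window, the median was 521 bp at Itgal and 528 bp at Itgam-Itgax, against 615.5 bp for the other peaks of chromosome 7. It was 618.5 bp at Itgb2 against 606 bp on chromosome 10, 681.5 bp at Itgae against 613 bp on chromosome 11, and 544 bp at Itga2-Itga1 against 596 bp on chromosome 13. The 95% order-statistic interval of the Itgam-Itgax median was 468 to 667 bp and that of the Itga2-Itga1 median 484 to 704 bp, each of which includes the value for its chromosome. The Itgal and Itgae widths, 422 to 975 bp and 620 to 786 bp, rest on 8 and 4 peaks, too few for an interval narrower than the range itself.

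**Figure D4:**
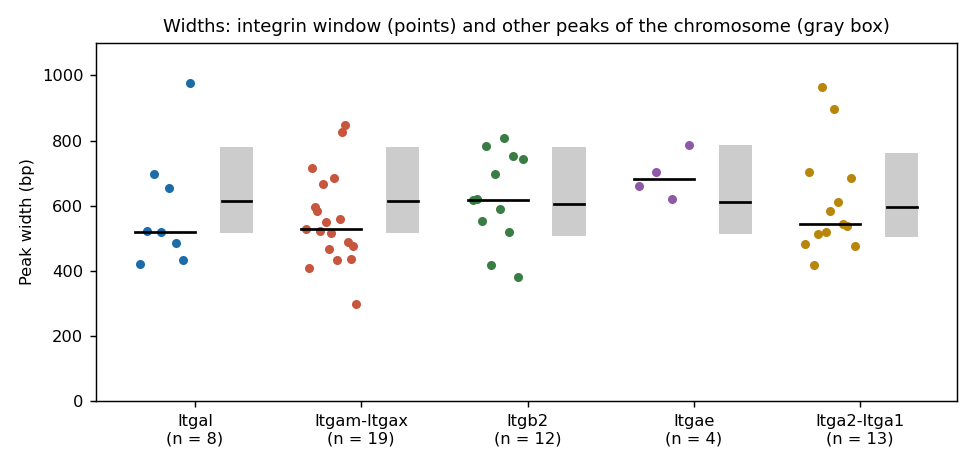
Peak widths in bp. Points are the peaks of each integrin window with their median as a black bar, and the gray box beside them is the interquartile range of the other peaks of the same chromosome with its median. All 56 points lie below 1000 bp, and only at Itgae do all points lie above the chromosome's median.

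The list does not say whether close neighbours are separate sites or 1 region listed as several peaks. Between neighbours in the 5 windows, 11 gaps were at most 1000 bp, 4 at Itgam-Itgax, 4 at Itgb2, 2 at Itga2-Itga1 and 1 at Itgal, with 0 at Itgae. After joining across such gaps the ratios of counts to tiles stayed within the counting intervals given above for every window.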

How the data were processed

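Per the labels' protocols, cells fixed in 1% formaldehyde were sonicated to fragments near 200 bp, and ELAND aligned the 50 bp reads. The submitters' processing notes name mm9 and CASAVA 1.8.2. The sources used here name no peak caller or threshold and do not say how the control library was used. The deposited file is a list of peaks with chromosome, start and end, and starts are printed here counted from 1. Members were peaks with their midpoint in the 5 windows, and members, windows and lists were chosen with earlier results of these data known. Counts, widths, spacing and covered share were computed with Python 3.11.15, numpy 2.4.6 and scipy 1.17.1, and the functions were tested on simulated lists. No p-value was computed. Tiles were limited to the span from the first to the last peak of a chromosome. Intervals cover counting error only. All peaks were named by position in windows of at most 12 peaks, and otherwise the 6 widest, the first, the last and the closest pair. The gene and promoter tables are on GRCm38.p6, which holds all 7 member genes, so peaks were not assigned to genes. Motifs of 6 letters were sought on both strands.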

Additional observations from a re-analysis of the deposited data

How the results depend on the processing

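Of 100 recomputed values that have an interval, 80 stayed within it without a change of direction and 19 moved out of it. The remaining 1 reversed direction, though it too lay within its interval. The comparison with surrounding windows was added after the data were seen, and the others were planned. Against tiles with at least 1 peak only, the ratio of counts was 2.67 at Itgal, 4.03 at Itgam-Itgax, 4.26 at Itgb2 and 3.33 at Itga2-Itga1, and that of covered shares 2.29, 3.29, 3.89 and 3.04, lower because empty tiles are left out. Of these tiles, 4.96% held at least as many peaks as the Itgal window. The share was 0.68% for Itgam-Itgax, 2.33% for Itgb2, 2% for Itga2-Itga1 and 44.3% for Itgae. Against surrounding windows within 1 Mb, the ratio of counts was 1.68 at Itgal, 3.80 at Itgam-Itgax, 5.40 at Itgb2 and 39.0 at Itga2-Itga1, and that of covered shares 1.38, 2.78, 4.59 and 46.2. The Itga2-Itga1 values rest on 6 surrounding windows with 0 to 2 peaks, a mean of 0.333 peaks and 0.0537% covered. Their size therefore depends on very few peaks. With only peaks at or above the median width, the Itgam-Itgax ratios were 4.88 for counts and 4.27 for covered share. The spacing ratio was then 0.808 at Itgal, 0.655 at Itgam-Itgax and 0.890 at Itga2-Itga1, against 0.359, 0.159 and 0.465 with all peaks. Each interval includes 1, but with 3, 5 and 5 peaks left it is only the range of the distances. The spacing ratio of Itgae to its chromosome reversed, at 0.929 against 2.04 with all peaks. The same 4 Itgae peaks enter both values, since all 4 are that wide, while the chromosome has fewer peaks. Narrowing the Itgb2 window by 0.25 of its width on each side gave 23.1 for counts and 20.7 for covered share. Joining gaps of up to 1000 bp gave a ratio of the Itgb2 median width to that of its chromosome of 1.25, against 1.02 as listed, since joined peaks are longer. For Itgae, the ratio of counts ranged from 1.02 to 3.69 over 8 alternatives. With the wider peaks, which include all 4 at Itgae, the interval of that ratio excluded 1 (1.0046 to 9.44). That of the covered share in the widened window did so as well (2.51, 1.01 to 5.18). Intervals of covered shares are those of the peak count, rescaled, so the spread of peak widths does not enter them. The number of promoters with a Runx core stayed at 1 of 4 with TGTGGT alone, while the background fell to 16.8% of all promoters and 12.5% (3 of 24) of those of integrin genes. The location of peaks relative to genes was not run, as no mm9 annotation was used here. No paired analysis was possible because there was 1 Runx3 library and 1 control library. Without read counts, sites that were weak or missed cannot be judged.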
